A study of Mus musculus with 12 samples.

Results

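Transcripts that mark myeloid and natural killer (NK) cells were followed in RNA sequencing libraries from cultured mouse T cells. The set holds 9 transcripts, named as markers of these cells and found by gene symbol or Ensembl ID. They were Lyz2, Cd68, Csf1r, Itgam, Cst3, Fcer1g and Tyrobp for myeloid cells (7 members) and Klrb1c and Ncr1 for NK cells (2 members). All 9 were among the 13811 genes that passed the filter on low counts, out of 38924 gene IDs in the count data.

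Naive T cells had been sorted from spleens of C57BL/6 wild-type (WT) mice and of STINGgt/gt (Goldenticket) mice, labelled as STING knockout. In the latter a missense mutation of the STING gene leaves no functional protein. STING is the adaptor that relays the presence of cytosolic DNA to the kinase TBK1 and to interferon and NF-κB signalling. The study's methods give an age of 8 to 12 weeks for its mice. All 4 groups had been stimulated through CD3 and CD28 for 2 days and rested for 1 day. They then received either DMSO as the vehicle or 10-carboxymethyl-9-acridanone (CMA), a cell-permeable agonist of mouse STING. Exposure lasted overnight by the study's methods and 16 h by the sample labels. The 4 groups were thus WT DMSO, WT CMA, STINGgt/gt DMSO and STINGgt/gt CMA, with 3 libraries each. The libraries are described as biological replicates without an animal for each, so the p-values below measure the spread between these libraries.

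Macrophages, monocytes and neutrophils share a programme of lysosomal enzymes, adhesion receptors and Fc receptors, and their development depends on the transcription factor PU.1. NK cells are innate lymphocytes that kill through the same granule proteins as cytotoxic T cells and carry activating receptors at their surface. Many of the activating receptors of both lineages have no signalling tail of their own. They pair with the small adaptors encoded by Fcer1g and Tyrobp, whose immunoreceptor tyrosine-based activation motifs (ITAMs) recruit the kinases SYK and ZAP70. A bulk library of a T cell culture does not separate bystander cells from T cells that express such a gene.

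The sequences before the start sites of Cd68 and Itgam are shown because each holds the core of the PU.1 motif, while with CMA in WT T cells Itgam fell and Cd68 did not pass the test, as given below. They are the 250 bases upstream of the start in RefSeq on GRCm38.p6, printed 5′ to 3′ on the strand of the gene, with the matches in capitals. The windows lie at chr11:69666171-69666420 (minus strand) for Cd68 and at chr7:128062390-128062639 (plus strand) for Itgam.
Cd68: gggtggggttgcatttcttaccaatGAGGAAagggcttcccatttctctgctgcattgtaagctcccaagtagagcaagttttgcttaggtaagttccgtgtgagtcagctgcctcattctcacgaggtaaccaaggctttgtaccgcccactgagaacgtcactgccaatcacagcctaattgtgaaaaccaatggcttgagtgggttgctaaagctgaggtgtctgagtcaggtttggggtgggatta
Itgam: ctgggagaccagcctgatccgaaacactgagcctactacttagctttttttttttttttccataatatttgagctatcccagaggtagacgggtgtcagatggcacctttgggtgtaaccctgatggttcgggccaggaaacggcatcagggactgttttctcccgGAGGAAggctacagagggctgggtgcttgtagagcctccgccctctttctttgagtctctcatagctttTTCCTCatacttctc

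Windows were found for 7 of the 9 members. The letters GAGGAA, searched on both strands, stood once each in the windows of Cd68 and Cst3 and at 2 places each in those of Itgam and Klrb1c, and were not in those of Lyz2, Fcer1g and Ncr1. Of all 26734 windows of 250 bases, 23.3% held this core. In Itgam the nearer match ended 10 bases before the start and lay on the opposite strand, so that on the gene's strand, as printed, it reads TTCCTC. RefSeq places the start of Klrb1c and of Cst3 inside the gene as the deposited table places it, so the window of Klrb1c lies within the deposited gene and that of Cst3 partly so, and the windows of Fcer1g and Lyz2 overlap the deposited gene by a few bases. None of the matches overlapped one another, and a match or its absence describes only these letters in these windows.

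Between 27414450 and 43784910 reads per library had been counted on genes. Levels are given as CPM, counts per 1000000 reads of the library size after TMM scaling, and differences as log2 values with their standard errors from edgeR's quasi-likelihood model. Adjusted p-values are Benjamini-Hochberg values over all 13811 genes, with 0.05 as the threshold. The WT DMSO libraries differed more among themselves than those of the other groups, at chi-square values of 9.98 to 29.9 per degree of freedom between pairs (29.9 between libraries 2 and 3), against 2.63 to 6.82, and calls that changed when a library was left out are given beside each result. The members were scarce transcripts apart from Cst3 and Cd68. T cell identity was clear in all 12 libraries, in which 10 CD4 T cell markers (Cd4, Cd28, Cd5 and others) summed to between 3536 and 3934 CPM. The 4 comparisons of groups share libraries with one another. In bulk samples, fewer cells of a type and less of an RNA per cell cannot be told apart, and this holds for every value below.

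**Figure D1:**
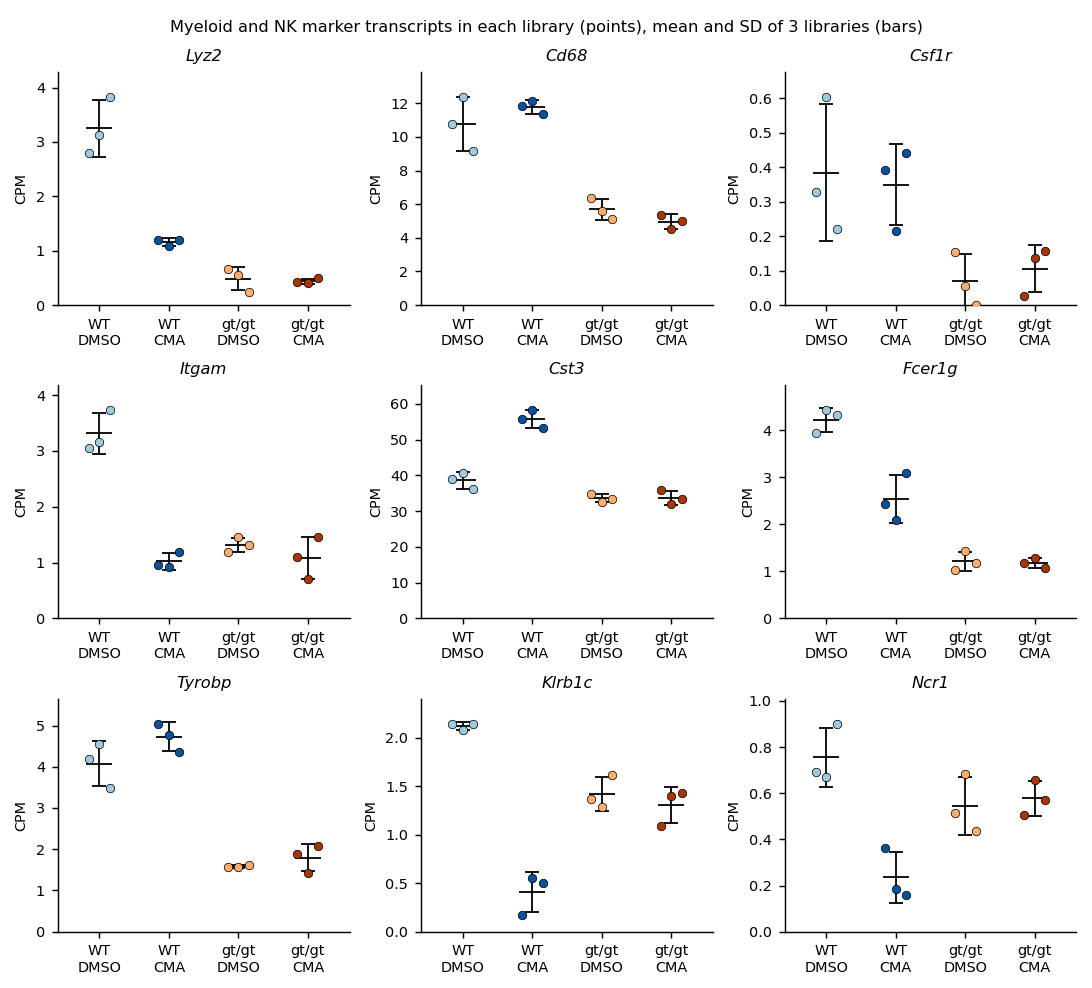
Level of the 9 transcripts in CPM (vertical axes, each from 0) in each of the 12 libraries (points) by group, with gt/gt standing for STINGgt/gt. The bars give the mean and SD of 3 libraries. In the WT DMSO group 8 of the 9 transcripts lay above every STINGgt/gt DMSO library, and with CMA in WT Lyz2, Itgam, Fcer1g, Klrb1c and Ncr1 were lower and Cst3 was higher.

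With DMSO, 8 of the 9 members were higher in WT than in STINGgt/gt T cells and none was lower, where 22.9% of all genes tested were higher and 19.8% lower. The same 8 did not overlap between the groups (25.3% of all genes were higher and 22.6% lower without overlap). Csf1r, which passed the filter only through the WT libraries, is among the 8, and 7 of the other 8 members were higher. Ncr1 was the exception, with a log2 difference of 0.49 (standard error 0.253, adjusted p = 0.136, edgeR). Under the alternative settings given below its difference ran from 0.30 to 0.67 and did not pass the threshold. The median log2 difference was 1.35 over the 9 members and -0.00 over all genes. With CMA in WT, 5 members were lower than with DMSO (37.4% of all genes) and 1 was higher (33.0% of all genes), again without overlap (37.6% and 33.5%), and the median was -0.74 against -0.04 over all genes. With CMA in STINGgt/gt T cells none of the 9 passed the threshold on the adjusted p in edgeR's test, where 1.32% of all genes were called. Neither did the 4 members to which DESeq2 gave an adjusted p or the 7 in limma's test on the authors' log2 table. No member had an unadjusted p under 0.05 in edgeR's test, and the share of all genes at that limit was not counted. All 9 overlapped between these groups (23.1% of all genes did not), and the median was -0.04 against 0.00.

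Lyz2, which encodes lysozyme M, an antibacterial enzyme of macrophages and granulocytes, lies on chromosome 10 of GRCm38 from 117277334 to 117282274 on the minus strand. Its levels were 2.80, 3.12 and 3.83 CPM with DMSO and 1.20, 1.08 and 1.20 with CMA in WT T cells. STINGgt/gt T cells held 0.670, 0.547 and 0.249 CPM in the DMSO and 0.426, 0.407 and 0.494 CPM in the CMA libraries. The WT DMSO libraries stood above all others, the WT CMA libraries were next, and the STINGgt/gt groups overlapped. The genotype difference with DMSO was 6.53-fold (log2 2.71, standard error 0.216, adjusted p = 4.44e-08, edgeR). With CMA it fell by 1.50 on the log2 scale in WT (standard error 0.187, adjusted p = 2.04e-06), while the difference in STINGgt/gt was -0.18 (adjusted p = 0.854). It was still 2.62-fold higher in WT with CMA (adjusted p = 0.000143). Lyz1, its close copy, had at most 2 reads in any library.

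Cd68, a heavily glycosylated protein of the lysosomal membrane (chromosome 11, 69664213 to 69666153, minus strand), was at 10.8, 12.4 and 9.17 CPM with DMSO and at 11.9, 12.2 and 11.4 with CMA in WT T cells. The values in STINGgt/gt T cells were 6.36, 5.61 and 5.10 CPM with DMSO and 5.38, 4.50 and 4.99 with CMA. Every WT library lay above every STINGgt/gt library, and within each genotype the treatments overlapped. The genotype difference was 1.87-fold with DMSO (log2 0.91, standard error 0.111, adjusted p = 6.51e-06, edgeR) and 2.38-fold with CMA (log2 1.25, standard error 0.110, adjusted p = 2.47e-08). The CMA difference was 0.14 on the log2 scale in WT (adjusted p = 0.239) and -0.21 in STINGgt/gt (adjusted p = 0.490). Without the WT DMSO library 2 the value in WT passed the threshold (0.25, adjusted p = 0.0292), and without the WT DMSO library 3 it fell to 0.03 (adjusted p = 0.758).

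Cst3 encodes cystatin C, a secreted inhibitor of cysteine proteases that dendritic cells and macrophages make in large amounts and many other cells at lower ones (chromosome 2, 148871722 to 148875692, minus strand). It was at 39.0, 40.8 and 36.1 CPM with DMSO and at 55.7, 58.2 and 53.3 CPM with CMA in WT. The STINGgt/gt libraries held 34.7, 32.6 and 33.3 CPM with DMSO and 35.9, 31.9 and 33.3 with CMA. The WT CMA group stood apart above the other 3 groups, which lay close together. Cst3 rose with CMA in WT by 0.53 on the log2 scale (1.45-fold, standard error 0.0574, adjusted p = 4.02e-07, edgeR), and the log2 difference in STINGgt/gt was 0.00 (adjusted p = 0.985). The genotype difference with DMSO was 1.15-fold (log2 0.20, adjusted p = 0.0111), and was lost without the STINGgt/gt DMSO library 2 (adjusted p = 0.0619). With CMA it was 1.66-fold (adjusted p = 5.95e-09).

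Csf1r, the receptor for the macrophage growth factors CSF1 and IL-34 (chromosome 18, 61100598 to 61132149, plus strand), was near the limit of detection. It had 9, 18 and 9 reads in the WT DMSO libraries, 14, 7 and 14 in WT CMA, 6, 2 and 0 in STINGgt/gt DMSO and 1, 6 and 6 in STINGgt/gt CMA. Each WT library had more reads than any STINGgt/gt library, and the treatments overlapped within each genotype. Csf1r passed the filter on low counts only through the WT libraries, in which it is high, so its genotype differences are given as a description. In the library with 0 reads, a level of up to 0.0934 CPM (3 reads) is allowed by counting error. The genotype difference was 4.77-fold with DMSO (log2 2.25, standard error 0.651, adjusted p = 0.0104, edgeR) and 3.17-fold with CMA (log2 1.66, standard error 0.585, adjusted p = 0.0174). Leaving out the STINGgt/gt DMSO library 1 moved the former to 3.50 on the log2 scale. The latter was lost without WT CMA library 1 (adjusted p = 0.0544), without WT CMA library 3 (0.0642) and without STINGgt/gt CMA library 1 (0.0700). Csf1r overlaps Hmgxb3 on the opposite strand. The study's methods name a stranded library kit, but the strand setting of the counting is not given in the sources used here. A few of the reads counted for Csf1r could thus belong to Hmgxb3. Csf1r also holds Mir6983 on its own strand.

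Itgam encodes CD11b, the α chain of the integrin Mac-1, found on monocytes, macrophages, granulocytes and NK cells (chromosome 7, 128062640 to 128128160, plus strand). Its levels in WT were 3.06, 3.15 and 3.73 CPM with DMSO and 0.949, 0.926 and 1.20 CPM with CMA. In STINGgt/gt T cells the levels were 1.19, 1.45 and 1.31 CPM with DMSO and 1.09, 0.701 and 1.46 CPM with CMA. The WT DMSO group stood above the other 3, and WT CMA overlapped with both STINGgt/gt DMSO and STINGgt/gt CMA. Itgam fell by 1.71 on the log2 scale with CMA in WT (3.27-fold lower, standard error 0.199, adjusted p = 9.94e-07, edgeR). The genotypes differed 2.54-fold with DMSO (log2 1.35, adjusted p = 2.46e-05), and with CMA the difference was -0.07 (standard error 0.235, adjusted p = 0.811). Itgam overlaps Gm49368 and Gm45700 on its own strand, so the assignment of reads between them is uncertain.

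Of the ITAM adaptors, Fcer1g fell with CMA in WT and Tyrobp did not pass the test, and the difference between them was not tested. Fcer1g, the common γ chain of Fc receptors (chromosome 1, 171229572 to 171234365, minus strand), was at 3.93, 4.43 and 4.32 CPM with DMSO and at 2.43, 2.10 and 3.09 with CMA in WT T cells. In STINGgt/gt T cells it was at 1.03, 1.42 and 1.18 CPM with DMSO and at 1.17, 1.29 and 1.07 with CMA. The WT DMSO libraries were highest, WT CMA came next without overlap and the STINGgt/gt groups overlapped with each other. Fcer1g fell by 0.74 on the log2 scale with CMA in WT (standard error 0.141, adjusted p = 0.000182, edgeR) and was higher in WT than in STINGgt/gt by 3.49-fold with DMSO (adjusted p = 1.28e-07) and by 2.14-fold with CMA (adjusted p = 1.56e-05).

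Tyrobp encodes DAP12, the partner of many activating NK and myeloid receptors (chromosome 7, 30413788 to 30417577, plus strand). It was at 4.19, 4.56 and 3.49 CPM with DMSO and at 5.05, 4.78 and 4.35 with CMA in WT. In STINGgt/gt T cells the values were 1.57, 1.56 and 1.62 CPM with DMSO and 1.89, 1.43 and 2.08 with CMA. Every WT library lay above every STINGgt/gt library, and the treatments overlapped within each genotype. The genotype difference was 2.55-fold with DMSO (log2 1.35, standard error 0.150, adjusted p = 2.10e-06, edgeR) and 2.65-fold with CMA (log2 1.41, adjusted p = 1.22e-07). The CMA difference in WT was 0.23 (standard error 0.128, adjusted p = 0.124). It passed the threshold without the WT DMSO library 2 (0.31, adjusted p = 0.0476) and fell to 0.12 without the WT DMSO library 3 (adjusted p = 0.409). In STINGgt/gt it was 0.17 (adjusted p = 0.717).

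Klrb1c, the NK1.1 antigen of C57BL/6 mice (chromosome 6, 128778485 to 128789215, minus strand), was at 2.15, 2.08 and 2.15 CPM in the WT DMSO libraries and at 0.167, 0.555 and 0.504 CPM in WT CMA, which rest on 6, 18 and 16 reads. STINGgt/gt T cells held 1.37, 1.29 and 1.62 CPM with DMSO and 1.09, 1.40 and 1.43 CPM with CMA. The WT CMA libraries lay below all others and the WT DMSO libraries above all others. The fall with CMA in WT was 5.27-fold (log2 -2.40, standard error 0.253, adjusted p = 2.98e-07, edgeR). With CMA, Klrb1c was thus 3.25-fold lower in WT than in STINGgt/gt (adjusted p = 2.47e-05), whereas with DMSO it was 1.50-fold higher (log2 0.58, standard error 0.194, adjusted p = 0.0227). This last call was lost without WT DMSO library 1 (adjusted p = 0.0552), without STINGgt/gt DMSO library 1 (0.0717), without STINGgt/gt DMSO library 2 (0.0885) and with limma on the authors' log2 table (0.158). Reads shared with related genes of its family, such as Klrb1b, or with Gm44511, which overlaps it on the same strand, could not be assigned, so its level is uncertain.

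Ncr1, which encodes the natural cytotoxicity receptor NKp46 (chromosome 7, 4337724 to 4345164, plus strand), was scarce in all groups. The WT libraries held 0.692, 0.671 and 0.902 CPM with DMSO and 0.363, 0.185 and 0.158 CPM with CMA, the latter from 13, 6 and 5 reads. In STINGgt/gt T cells the values were 0.515, 0.684 and 0.436 CPM with DMSO and 0.506, 0.656 and 0.572 CPM with CMA. The WT CMA group was below the other 3, and those of STINGgt/gt overlapped with each other. Ncr1 fell by 1.67 on the log2 scale with CMA in WT (3.18-fold lower, standard error 0.308, adjusted p = 0.000141, edgeR) and was 2.40-fold lower in WT than in STINGgt/gt with CMA (adjusted p = 0.00181).

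**Figure D2:**
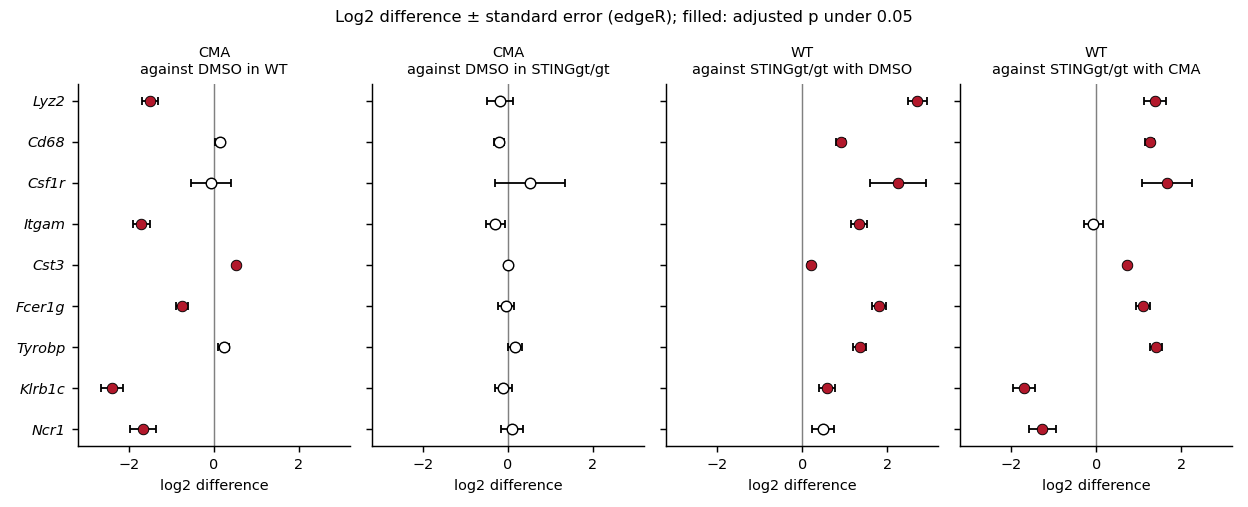
Log2 difference of each transcript (points) with its standard error (lines, hidden by the point where short) in the 4 comparisons, from edgeR. Filled points passed an adjusted p of 0.05. The CMA differences in WT run from -2.40 for Klrb1c to 0.53 for Cst3, those in STINGgt/gt are all open, and the genotype difference with DMSO is above 0 for every transcript.

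With CMA, 6 members were higher in WT than in STINGgt/gt T cells (37.0% of all genes) and 2 were lower (36.5% of all genes), with the same split by overlap (39.7% and 39.2%). The 6 were all myeloid members other than Itgam, again with Csf1r among them, and the 2 were Klrb1c and Ncr1. The difference of the CMA effect between the genotypes, tested as an interaction, was below 0 for 5 members (31.6% of all genes) and above 0 for Cst3 (27.2% of all genes), so 6 of 9 in either direction, where 58.8% of all genes were called. It was -2.29 for Klrb1c (standard error 0.332, adjusted p = 1.99e-05, edgeR), -1.75 for Ncr1 (0.406, 0.00148), -1.41 for Itgam (0.302, 0.000757), -1.32 for Lyz2 (0.364, 0.00532) and 0.53 for Cst3 (0.0819, 4.03e-05), each with its standard error and adjusted p. For Fcer1g it was -0.70 (standard error 0.235, adjusted p = 0.0170), and the call was lost without STINGgt/gt DMSO library 1 (0.0584) or STINGgt/gt CMA library 2 (0.0573). Cd68 (0.35, adjusted p = 0.0680), Csf1r (-0.59, adjusted p = 0.613) and Tyrobp (0.05, adjusted p = 0.842) did not pass, although Cd68 did without WT DMSO library 2 (0.00820), STINGgt/gt DMSO library 3 (0.0377) or STINGgt/gt CMA library 1 (0.0449). For Csf1r, leaving out single libraries moved the difference from -1.83, without STINGgt/gt DMSO library 1, to -0.09, without STINGgt/gt DMSO library 3, and it also moved by over 1.5 times without WT DMSO library 2 or 3, WT CMA library 2 or any 1 of the STINGgt/gt CMA libraries.

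The summed level of the 7 myeloid members combined these opposite differences. It ran from 60.9 to 69.0 CPM in WT DMSO, 74.9 to 79.5 in WT CMA, 42.8 to 45.7 in STINGgt/gt DMSO and 40.3 to 45.9 in STINGgt/gt CMA. Cst3 alone made up 59.8%, 72.1%, 76.4% and 77.9% of the sum in these groups. Without Cst3 the ranges were 24.8 to 28.2, 21.3 to 21.9, 9.46 to 11.0 and 8.46 to 10.2 CPM, so that the log2 difference with CMA in WT turned from 0.26 to -0.27. The genotype difference with DMSO went from 0.56 to 1.33 when Cst3 was left out. Klrb1c and Ncr1 together were at 2.75 to 3.05 CPM in WT DMSO, 0.530 to 0.741 in WT CMA, 1.88 to 2.05 in STINGgt/gt DMSO and 1.60 to 2.06 in STINGgt/gt CMA. These sums are descriptions without a test.

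**Figure D3:**
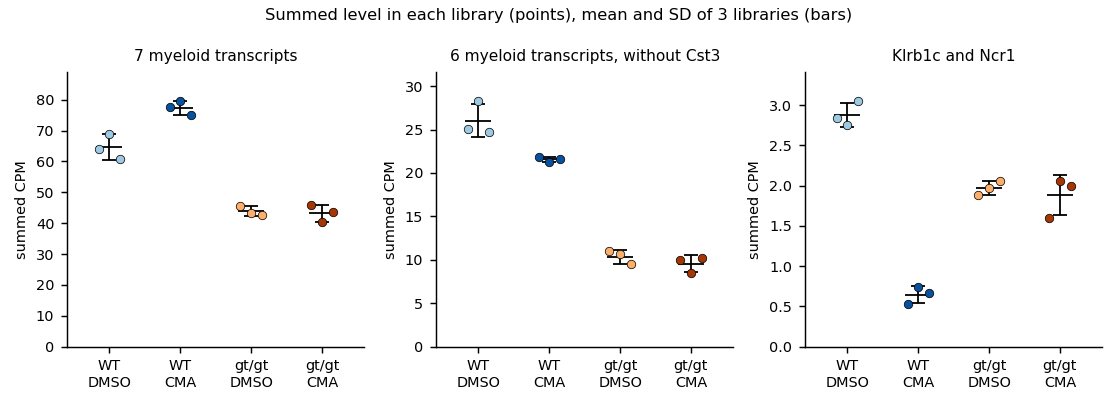
Summed CPM (vertical axes, from 0) of the 7 myeloid transcripts, of the same without Cst3, and of Klrb1c with Ncr1, in each library (points) with the mean and SD of 3 libraries (bars). With Cst3 the WT CMA group is highest (74.9 to 79.5 CPM), and without it the WT DMSO group is (24.8 to 28.2 CPM).

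Per kilobase of annotated exon, the order in WT DMSO was Cst3 (30.5 ± 1.86 CPM per kb, SD, n = 3), Cd68 (8.57 ± 1.28), Tyrobp (6.12 ± 0.819), Fcer1g (4.83 ± 0.297), Lyz2 (2.47 ± 0.399), Klrb1c (0.718 ± 0.0131), Itgam (0.660 ± 0.0724), Ncr1 (0.490 ± 0.0831) and Csf1r (0.0665 ± 0.0343). Neighbours in this order did not overlap, except Klrb1c and Itgam. The first 4 places were the same in all 4 groups. In WT CMA, Itgam (0.204), Ncr1 (0.153), Klrb1c (0.138) and Csf1r (0.0605 CPM per kb) each overlapped with the next. In STINGgt/gt DMSO, Lyz2 had moved from place 5 to place 6, at 0.371 ± 0.165 CPM per kb (SD, n = 3), below Klrb1c at 0.481 ± 0.0586 and overlapping with it.

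Across the 12 libraries the tested genes nearest to each member in pattern were found by the mean absolute difference of centred log2 CPM, among 13181 other tested genes with a mean count of at least 10 (13182 for Csf1r), as a description. For Cst3 they were Map1lc3b (0.0353), Tmem43 (0.0372) and Hgs (0.0402), and for Cd68 Susd3 (0.0756) and Tle6 (0.0858). Tyrobp was nearest to Rrad (0.0953), Furin (0.104) and Cxcr6 (0.116), and Fcer1g to Kif19a (0.119), Bank1 (0.148) and Ajuba (0.149). The remaining members had less close neighbours. They were Serpinb1a (0.170), Tmem163 (0.202) and Gm17322 (0.220) for Lyz2, Rbm47 (0.190), Ubtd1 (0.199) and Igfbp4 (0.206) for Itgam, and 9430020K01Rik (0.170), Npnt (0.188) and Rnd2 (0.189) for Ncr1. Klrb1c was nearest to Gpm6b (0.209), Gpld1 (0.244) and Sord (0.244), and Csf1r, with its few reads, to Timp3 (0.321), Grhl3 (0.363) and Igkv5-39 (0.393). Of the members themselves, Cd68 and Tyrobp were the closest pair (0.181).

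Other markers of the same and of further cell types differed between the groups too, some lists in other directions than the members, and their part in the results above was not tested. Of all genes tested, 22.9% were higher and 19.8% lower in WT with DMSO, and 33.0% rose and 37.4% fell with CMA in WT, and the counts of each list stand beside these shares. Some lists share genes, so their counts are not separate. Of the tested genes, Ctss is in the macrophage and lysosomal lists, Flt3 in the dendritic cell and CSF1R lists, and Kit in the CSF1R and mast cell lists. Cd3e is in the ITAM and CD4 T cell lists, and Klrk1 in the ITAM and NK lists. Of 22 further macrophage and monocyte markers 11 were tested, and with DMSO 9 of them were higher and 1 lower in WT than in STINGgt/gt (median log2 1.33, against -0.00 over all genes). Cd14 and Clec7a, among the 9, passed the filter only through WT libraries. With CMA in WT 6 rose and 4 fell. The 3 most abundant were Ctss, a lysosomal cysteine protease, Cybb, the catalytic subunit of the phagocyte oxidase, and Mpeg1, a pore-forming protein of phagocytes. Cybb was at 40.7 ± 6.16 CPM in WT DMSO, 103 ± 6.15 in WT CMA, 17.2 ± 1.01 in STINGgt/gt DMSO and 17.1 ± 0.583 in STINGgt/gt CMA (SD, n = 3), with adjusted p = 2.89e-10 for CMA in WT and 1.09e-08 for genotype with DMSO (edgeR). Mpeg1 rose with CMA in WT from 19.4 ± 1.78 to 62.2 ± 5.41 CPM (SD, n = 3), and Ctss from 84.5 ± 3.55 to 160 ± 7.98, while with DMSO Ctss was the marker that was lower in WT (log2 -0.18, adjusted p = 0.0166). Spi1, the gene of PU.1, is named here because of the PU.1 motif in the windows above. With CMA in WT it rose from 4.29 ± 0.328 to 7.08 ± 0.444 CPM (SD, n = 3, adjusted p = 1.3e-05, edgeR). In STINGgt/gt it was at 1.45 ± 0.283 CPM with DMSO and 1.39 ± 0.0125 with CMA, and its relation to the members was not tested. The list summed to 193 to 213 CPM in WT DMSO, 361 to 396 in WT CMA, 149 to 155 in STINGgt/gt DMSO and 148 to 159 in STINGgt/gt CMA. The defining markers of resident macrophages were at or near 0, with no read of C1qa, C1qc or Vsig4 in any library, at most 1 of C1qb or Spic, and between 1 and 6 of Adgre1, which encodes F4/80.

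The neutrophil list had 2 of 10 members above the filter. Cxcr2, a chemokine receptor, was at 2.09 ± 0.236 CPM in WT DMSO, 0.0962 ± 0.0872 in WT CMA, 0.0905 ± 0.0556 in STINGgt/gt DMSO and 0.0741 ± 0.0199 in STINGgt/gt CMA (SD, n = 3). Ly6g was at 1.99 ± 0.539, 0.686 ± 0.317, 0.0195 ± 0.0170 and 0.0413 ± 0.0131 CPM in the same order. Both passed the filter only through WT libraries, in which they are high, so these levels are a description. The list summed to 3.76 to 5.39 CPM in WT DMSO, 0.977 to 1.93 in WT CMA, 0.137 to 0.232 in STINGgt/gt DMSO and 0.186 to 0.208 in STINGgt/gt CMA. The granule genes Elane, Camp, Ngp and Mpo were at or near 0, with no read of Elane, at most 1 of Camp, 4 of Ngp and 8 of Mpo in any library. There was no read of Retnlg, and at most 2 of S100a8 and 8 of S100a9.

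Of 10 dendritic cell markers 5 were tested, of which 3 were higher in WT with DMSO, and 3 rose and 2 fell with CMA in WT. The abundant ones were Bst2, which rose from 79.4 ± 6.11 to 409 ± 9.54 CPM (SD, n = 3), Zbtb46, which rose from 8.25 ± 1.03 to 55.5 ± 2.30, and Batf3, which fell from 18.7 ± 1.67 to 13.4 ± 1.75. The sum over the list was 111 to 123 CPM in WT DMSO, 485 to 512 in WT CMA, 102 to 105 in STINGgt/gt DMSO and 91.1 to 109 in STINGgt/gt CMA. Bst2 alone made up most of this sum in every group, so the sum mainly follows Bst2. The subset markers Xcr1, Clec9a, Cd209a and Siglech had at most 1 read in any library.

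Of 20 further NK and cytotoxic markers 19 were tested. With DMSO 14 were higher in WT and 2 lower (median log2 0.83), and with CMA in WT 16 fell and 2 rose (median -1.25, against -0.04 over all genes). Nkg7, a granule membrane protein, fell from 69.6 ± 6.14 to 20.4 ± 1.79 CPM (SD, n = 3, adjusted p = 1.73e-12, edgeR), and Txk, a T and NK cell kinase, from 56.7 ± 0.510 to 37.1 ± 1.75 CPM (adjusted p = 1.42e-08). Ccl5, a chemokine, rose from 10.8 ± 1.95 to 1932 ± 35.6 CPM (adjusted p = 7.39e-19), which set the sum of the list at 2035 to 2111 CPM in WT CMA, against 295 to 333 in WT DMSO, 153 to 166 in STINGgt/gt DMSO and 155 to 160 in STINGgt/gt CMA. T cells express many of these genes too.

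**Figure D4:**
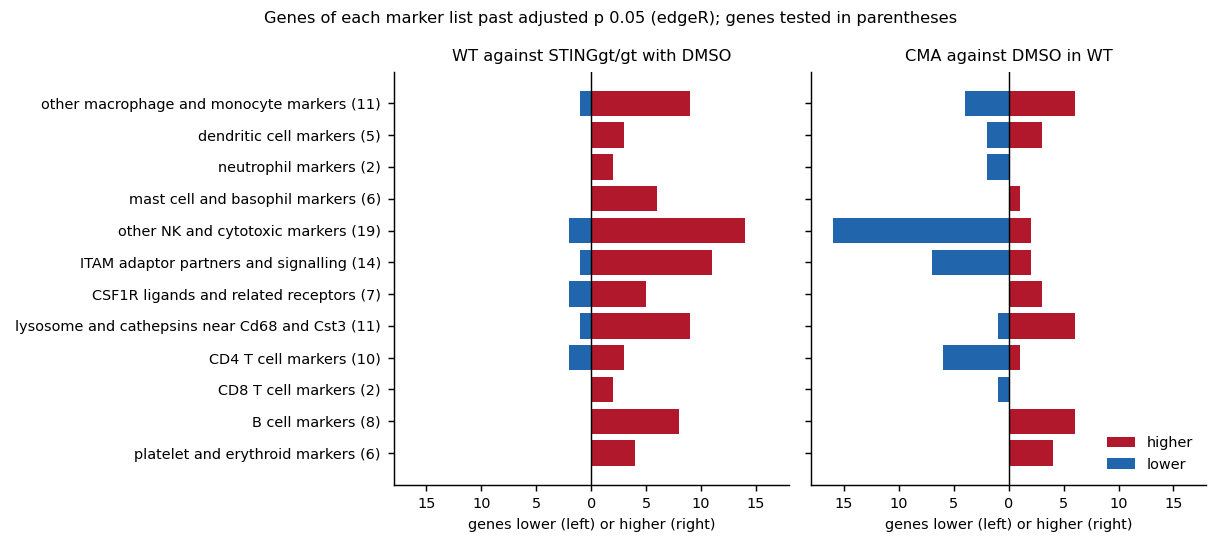
Number of genes of each marker list that were higher (right) or lower (left) with an adjusted p under 0.05 (edgeR) in WT against STINGgt/gt with DMSO and in CMA against DMSO in WT, with the number tested in parentheses. Of the other NK and cytotoxic markers 14 were higher in WT with DMSO, and 16 were lower with CMA in WT.

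Of 24 partners and signalling proteins of the ITAM adaptors 14 were tested, of which 11 were higher and 1 lower in WT with DMSO, and 7 fell and 2 rose with CMA in WT. The most abundant were the T cell receptor parts Cd3e and Cd247 and the kinase Zap70, which T cells use themselves. Cd247 rose with CMA in WT from 178 ± 10.1 to 248 ± 12.2 CPM (SD, n = 3), whereas Cd3e fell from 253 ± 12.7 to 160 ± 7.29. Syk, a kinase that these adaptors recruit, was chosen after its values were seen. It was at 73.8 ± 5.22 CPM in WT DMSO and 24.3 ± 0.799 in STINGgt/gt DMSO (SD, n = 3, log2 1.61, adjusted p = 3.43e-12, edgeR). Blnk, Plcg2, Lyn and Btk of this list, also named after their values were seen, were higher too (log2 1.84, 1.47, 1.38 and 0.97). All 8 B cell markers given below were higher in WT with DMSO as well, and which cells held Syk was not tested. Zap70 was at 212 ± 16.7 and 192 ± 8.04 CPM in these groups (log2 0.14, adjusted p = 0.0389). The list summed to 1038 to 1121 CPM in WT DMSO, 924 to 976 in WT CMA, 846 to 882 in STINGgt/gt DMSO and 858 to 882 in STINGgt/gt CMA. The myeloid receptor Trem2 had at most 1 read in any library, and Sirpb1a had none.

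Among 9 ligands and receptors of the CSF1R family and its relatives, 7 were tested, of which 5 were higher and 2 lower in WT with DMSO. Csf1, the ligand of Csf1r, was at 14.3 ± 0.797 CPM in WT DMSO, 14.4 ± 0.390 in WT CMA, 2.40 ± 0.127 in STINGgt/gt DMSO and 2.11 ± 0.219 in STINGgt/gt CMA (SD, n = 3), a log2 difference of 2.57 between genotypes with DMSO (adjusted p = 2.93e-12, edgeR) and of 0.00 with CMA in WT (adjusted p = 0.969). Flt3 rose with CMA in WT from 9.69 ± 0.538 to 16.6 ± 1.60 CPM. Csf2ra was lower in WT with DMSO (log2 -0.40, adjusted p = 0.0134). Il34 had at most 1 read in any library. Of the 11 lysosomal genes, all tested, 9 were higher and 1 lower in WT with DMSO, and 6 rose and 1 fell with CMA in WT. Ctsb rose from 277 ± 6.15 to 345 ± 10.8 CPM (SD, n = 3) and Lamp1 from 144 ± 6.46 to 194 ± 2.33, while Ctsd was at 168 ± 6.53 and 159 ± 3.23 (adjusted p = 0.126).

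All 8 B cell markers were higher in WT with DMSO, and their sum was 974 to 1057 CPM in WT DMSO, 1372 to 1505 in WT CMA, 478 to 500.0 in STINGgt/gt DMSO and 505 to 512 in STINGgt/gt CMA. The most abundant was Ighm, at 494 ± 34.2 CPM in WT DMSO and 205 ± 3.19 in STINGgt/gt DMSO (SD, n = 3). Both CD8 markers were higher in WT with DMSO as well, and Cd8a fell with CMA in WT from 22.8 ± 0.705 to 12.9 ± 0.824 CPM (adjusted p = 1.15e-08, edgeR). Of the 10 CD4 T cell markers, 3 were higher and 2 lower in WT with DMSO, and 1 rose and 6 fell with CMA in WT. With CMA in STINGgt/gt T cells the lowest adjusted p over all these lists was 0.0604, for Prf1 (edgeR), a pore-forming protein of cytotoxic granules named here for this value.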

How the data were processed

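Libraries of polyadenylated RNA from 12 T cell cultures (4 groups of 3) were analysed. The authors deposited counts of reads per Ensembl gene for each library, not normalized. The authors also deposited log2 values for 11921 genes, scaled by 1 factor per library, which served for positions, names and 1 alternative. The submitters' processing notes name cutadapt 1.3, STAR 2.4.0f1, HTSeq 0.6.1, RSEM 1.2.16 and GRCm38. HTSeq's closing tally lines did not enter the library sizes. Of all tallied entries, 27.8% to 30.3% were alignments that were not unique and 4.86% to 7.16% fell outside genes, so genes with close copies are undercounted.

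The counts were fitted with edgeR 4.0.16 in R 4.3.3 (glmQLFit, glmQLFTest, TMM, filterByExpr by group, the 4 groups in a single model), with Benjamini-Hochberg adjustment over 13811 genes and 0.05 as the threshold. The standard error was taken from the log2 value and the F statistic. All replicate pairs differed by more than the sampling noise. The members, marker lists and alternatives were chosen with earlier results of these data known. The genes named are all 9 members, the 3 nearest genes to each and at most the 3 most abundant tested genes of a list, apart from exceptions stated; 1 nearest gene is not reported here. For nearest genes, log2 CPM with a prior count of 2 and a mean count of at least 10 were used. Csf1r and Ncr1, which the log2 table leaves out, were placed by GENCODE M21, and exon lengths are unions of its exons. Alternatives were library-size and RLE scaling, DESeq2 1.42.0, limma 3.58.1 on the log2 table, other filters and thresholds, only the 2 groups compared, replicate blocks and leaving out each library. With 3 libraries against 3 an exact two-sided permutation test cannot go below 0.1 and was not used.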

Additional observations from a re-analysis of the deposited data

Results flagged for a closer look

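By edgeR's interaction test, 6 of the 9 transcripts responded to CMA differently in the 2 genotypes, where 58.8% of all genes tested did so in either direction, so that the count of members is near the share over all genes. The differences, WT minus STINGgt/gt on the log2 scale, were -2.29 for Klrb1c, -1.75 for Ncr1, -1.41 for Itgam, -1.32 for Lyz2, -0.70 for Fcer1g and 0.53 for Cst3.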

How the results depend on the processing

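No member changed direction while called under any alternative. With at least a 2-fold difference required, the members higher with CMA in WT went from 1 to 0, those higher in WT with DMSO from 8 to 5, and those with a difference of the CMA effect above 0 from 1 to 0. An adjusted p under 0.01 also left 5 higher in WT with DMSO. At least 10 counts in every library removed Lyz2, Csf1r, Klrb1c and Ncr1 from the test and left 5 higher in WT with DMSO, 2 lower with CMA in WT, 0 lower in WT with CMA, and 2 below and 2 above 0 for the difference. The difference was above 0 for 2 members, with Cd68 added to Cst3, under RLE scaling, limma on the log2 table, no filter and the replicate block. With limma on the log2 table, a single member (1) was lower in WT with CMA, since it does not hold Ncr1. Without Cst3 the summed level (log2) was -0.27 with CMA in WT, -0.12 with CMA in STINGgt/gt, 1.33 for genotype with DMSO and 1.18 with CMA, and without Cst3, Fcer1g and Tyrobp -0.31, -0.20, 1.23 and 1.13.

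Leaving out each library gave 1 to 3 members higher and 5 lower with CMA in WT, 6 to 8 higher in WT with DMSO, 5 to 6 higher and 2 lower in WT with CMA, and 1 to 2 above and 4 to 5 below 0 for the difference. The summed level then ran from 0.22 to 0.31 with CMA in WT, -0.07 to 0.03 in STINGgt/gt, 0.51 to 0.60 for genotype with DMSO and 0.79 to 0.88 with CMA.

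Replicate numbers were not taken to pair libraries, since the correlations of the DMSO and CMA deviations were 0.00, 0.10 and 0.13 for the WT pairs and 0.06 for each STINGgt/gt pair. The replicate block brought Cd68 past the threshold for the difference (adjusted p = 0.0288, edgeR), whereas a block by the first digit of the library names did not (0.124). The block by name pairs the WT libraries as the replicate numbers do. It leaves STINGgt/gt DMSO library 2 and STINGgt/gt CMA library 2 each without a partner, so these add nothing to its CMA difference. Neither block changed another count of members for CMA against DMSO or for the difference, and neither was fitted for the comparisons of genotypes. Low counts limit Csf1r, Ncr1 and Klrb1c.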

Other observations

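Of 7 markers of mast cells and basophils 6 were tested. All 6 were higher in WT than in STINGgt/gt T cells with DMSO (22.9% of all genes) and with CMA (37.0% of all genes). Of these, Ms4a2, Prss34 and Mcpt8 passed the filter on low counts only through the WT libraries, in which they are high, so these counts are a description. With CMA in WT 1 rose (33.0% of all genes), and the other 5 did not pass the test. Cpa3, a mast cell protease, was at 1.15 ± 0.270 CPM in WT DMSO, 1.16 ± 0.152 in WT CMA, 0.439 ± 0.128 in STINGgt/gt DMSO and 0.383 ± 0.0513 in STINGgt/gt CMA (SD, n = 3). Gata2, a transcription factor of these cells, was at 1.16 ± 0.0772, 1.54 ± 0.381, 0.610 ± 0.157 and 0.647 ± 0.280 CPM in the same order. Kit, the stem cell factor receptor, was the gene that rose with CMA in WT, from 2.31 ± 0.391 to 6.68 ± 1.00 CPM (adjusted p = 5.85e-07, edgeR).

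Of 10 platelet and erythroid markers 6 were tested, and 4 were higher in WT with DMSO (22.9% of all genes) and 6 with CMA (37.0%), while 4 rose with CMA in WT (33.0%). Hbb-bs, Hba-a1, Hba-a2, Ppbp and Pf4 passed the filter only through WT libraries, so these counts are a description. Hbb-bs, a β globin gene, was at 0.746 ± 0.0499 CPM in WT DMSO, 1.67 ± 0.115 in WT CMA, 0.0263 ± 0.0258 in STINGgt/gt DMSO and 0.0164 ± 0.0144 in STINGgt/gt CMA (SD, n = 3). Itga2b was at 2.55 ± 0.527 and 4.25 ± 0.148 CPM in WT with DMSO and CMA and at 2.36 ± 0.0778 and 1.83 ± 0.197 in STINGgt/gt. Pf4 was at 0.326 ± 0.163 and 0.757 ± 0.0885 CPM in WT with DMSO and CMA and at 0.190 ± 0.156 and 0.208 ± 0.0241 in STINGgt/gt, also as a description.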
